A study of Mus musculus with 20 samples.

Results

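The epicardium genes were 10 genes taken by name, Wt1, Tbx18, Tcf21, Aldh1a2, Aldh1a1, Upk3b, Upk1b, Msln, Krt19 and Lrrn4, of the 48795 genes measured by bulk RNAseq in whole mouse hearts at E13.5. The 20 hearts, each from 1 embryo, comprised 10 WT, 5 Dp1Tyb and 5 Dp1TybDyrk1a+/+/- hearts. Dp1Tyb mice carry an extra copy of mouse chromosome 16 from Lipi to Zbtb21 (chr16:75337402-97763836 in GRCm39), a region orthologous to human chromosome 21 that includes Dyrk1a, and model Down syndrome. Dp1TybDyrk1a+/+/- mice carry the same duplication together with a null allele of Dyrk1a, which encodes a protein kinase, a genotype that by construction leaves 2 functional copies of this gene and 3 of the other duplicated genes. Dyrk1a RNA over the whole gene had log2 values of 11.37 ± 0.044 in WT (SD, n = 10), 11.69 ± 0.040 in Dp1Tyb and 11.76 ± 0.056 in Dp1TybDyrk1a+/+/- hearts (n = 5 each), so it was not lower with the null allele and does not check the genotype. Both strains were on the C57BL/6J background, the WT hearts were littermates of either strain, and the alleles are present in all cells of the embryo. The litter of each WT heart is not given in the labels, so all 10 were compared with each mutant group. Embryo sex is also not given, and Xist, the RNA of the inactive X chromosome, was high in 3 of 10 WT, 4 of 5 Dp1Tyb and 1 of 5 Dp1TybDyrk1a+/+/- hearts.

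The epicardium is the mesothelial layer that covers the heart. It forms from the proepicardium, spreads over the myocardium, secretes retinoic acid and growth factors that act on the muscle beneath, and releases cells that undergo an epithelial to mesenchymal transition and become fibroblasts and mural cells of the coronary vessels. Wt1, Tbx18 and Tcf21 encode transcription factors used to mark it, Aldh1a2 and Aldh1a1 encode enzymes that make retinoic acid, and Upk3b, Upk1b, Msln, Krt19 and Lrrn4 encode membrane and cytoskeletal proteins of mesothelium. Several of them are also expressed in the mesothelium or mesenchyme of other organs. In whole hearts, fewer epicardial cells and less RNA per epicardial cell cannot be told apart.

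All values are the log2-transformed normalized counts that the authors deposited, and a difference between groups is a difference in mean log2 value (log2 fold change). All 10 epicardium genes were among the 15304 genes whose normalized counts averaged 10 or more, so none was lost to the filter. The libraries were sequenced in lanes 3, 6 and 7, with 3 of the 5 Dp1TybDyrk1a+/+/- hearts in lane 7 against 1 of 5 Dp1Tyb and 2 of 10 WT hearts. Over all genes tested, Dp1TybDyrk1a+/+/- replicate 2 and WT replicate 6 stood apart, with root-mean-square deviations from their genotype means of 0.186 and 0.134, against 0.053 to 0.091 in the other hearts. Markers of heart muscle were detected in every group, with 8 of 8 tested and a summed level of 18.66 to 18.99 (log2) in WT, 18.68 to 18.84 in Dp1Tyb and 18.78 to 18.90 in Dp1TybDyrk1a+/+/- hearts. Markers of lung epithelium, the organ next to the heart, were low but present, with 5 of 6 tested, none at 0 and summed levels of 7.61 to 8.42, 7.59 to 8.17 and 7.58 to 8.13 in the same order. Of 7 liver markers 3 passed the filter, with summed levels of 5.79 to 6.02 over all hearts.

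Per length of its exons, Upk3b, a uroplakin, was the most abundant epicardium gene in WT hearts, at 483 ± 29.1 normalized counts per kilobase (SD, n = 10). Krt19, a simple-epithelium keratin, followed at 363 ± 16.4 and Tbx18, a T-box factor, at 353 ± 13.2. Tcf21, a basic helix-loop-helix factor needed for cardiac fibroblasts, stood at 203 ± 15.1 and Aldh1a2 at 177 ± 18.6 normalized counts per kilobase. Wt1, a zinc-finger factor, followed at 105 ± 6.90, Lrrn4 at 69.5 ± 4.97, Upk1b at 69.0 ± 3.0 and Msln, which encodes mesothelin, at 63.2 ± 3.44. Aldh1a1 was the lowest at 6.18 ± 0.197, so Aldh1a2 was the more abundant of the retinoic acid synthesis enzymes. The WT hearts of neighbours in this order overlapped for Krt19 and Tbx18, for Tcf21 and Aldh1a2, for Lrrn4 and Upk1b, and for Upk1b and Msln, and did not overlap for the other neighbours. Exon lengths came from GENCODE M39, and not from the annotation behind the table. They count each base in any annotated exon of the gene, so the order depends on the annotation, which the SD does not cover. Without division by length, mean normalized counts over all hearts were 1698 for Tbx18 and 1683 for Upk3b.

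In GRCm39 the transcription factors lie at chr2:104956625-105003961 (Wt1), chr9:87584851-87613338 (Tbx18) and chr10:22692803-22696073 (Tcf21), and the enzymes at chr9:71122630-71203527 (Aldh1a2) and chr19:20469539-20622825 (Aldh1a1). The others lie at chr5:136067350-136075342 (Upk3b), chr16:38591981-38620727 (Upk1b), chr17:25967312-25985619 (Msln), chr11:100031636-100039491 (Krt19) and chr2:132705985-132735941 (Lrrn4). Upk1b is the single epicardium gene on the duplicated chromosome, and it ends 36716675 bases before the duplication begins, so all 10 genes lie outside the duplication. Wt1 shares 246 of its 6444 exon bases with the antisense gene Wt1os, and Lrrn4 shares 1375 of 8197 with Crls1 on the opposite strand. Tbx18 (995 of 4745), Tcf21 (505 of 2726), Aldh1a2, Aldh1a1, Upk3b and Krt19 share exon bases with opposite-strand genes that were not among those tested. Whether the counting used strand is not given in the sources used here.

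RefSeq promoter windows (GRCm38.p6) were matched for Lrrn4, Upk3b, Aldh1a2, Tbx18, Tcf21 and Aldh1a1. Those of Lrrn4, Upk3b and Tbx18 are shown because the levels of these genes went up and down together from heart to heart, as described below for each pair. Each is the 250 bases before the gene's start, 5′ to 3′ along the gene, with capitals marking matches to CATTCC, the core of the motif bound by TEAD factors, on either strand.
Lrrn4, chr2:132880863-132881112, minus strand: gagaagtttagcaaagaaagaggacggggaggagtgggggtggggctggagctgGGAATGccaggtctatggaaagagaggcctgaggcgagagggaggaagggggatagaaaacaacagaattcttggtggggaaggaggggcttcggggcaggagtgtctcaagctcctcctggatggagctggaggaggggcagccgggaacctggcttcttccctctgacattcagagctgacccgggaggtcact
Upk3b, chr5:136038246-136038495, plus strand: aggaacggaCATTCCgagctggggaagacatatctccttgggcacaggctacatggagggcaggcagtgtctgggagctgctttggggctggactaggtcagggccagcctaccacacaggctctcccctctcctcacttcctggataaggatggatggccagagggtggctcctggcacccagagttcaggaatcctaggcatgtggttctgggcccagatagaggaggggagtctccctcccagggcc
Tbx18, chr9:87731261-87731510, minus strand: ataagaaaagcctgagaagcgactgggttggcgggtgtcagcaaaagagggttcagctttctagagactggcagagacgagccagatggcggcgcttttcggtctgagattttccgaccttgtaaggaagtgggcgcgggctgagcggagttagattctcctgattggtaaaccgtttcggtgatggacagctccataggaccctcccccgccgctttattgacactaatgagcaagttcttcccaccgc
CATTCC was present in windows of Lrrn4, Upk3b and Aldh1a1, which is 3 of the 6 genes with a window, and in 12.6% of the 32851 windows of all genes. The 6 genes had 7 windows, because Aldh1a1 had more than 1, and only 1 of its windows held CATTCC. Shares over all genes are thus per window, and counts for the 6 genes are per gene. AGATAA, a form of the GATA motif, was present in 2 of the 6 genes, Tcf21 and Aldh1a1, and in 9.99% of all windows. The E-box CAGCTG was present in 13.0% of all windows and in none of the 6 genes. The GC box GGGCGG was present in 32.7% of all windows and in none of the 6 genes. All motifs were sought on both strands, and none of them contains another.

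To see whether the duplication went with a change in epicardial gene expression, Dp1Tyb hearts were compared with WT hearts. None of the 10 epicardium genes passed an adjusted P-value of 0.05 (limma, Benjamini-Hochberg over 15304 genes), in a comparison in which 3.08% of all genes tested did. Against 15.6% of all genes tested (2382 genes), 1 of the 10 epicardium genes had an unadjusted P-value under 0.05. Their log2 fold changes ran from -0.051 for Aldh1a1 to 0.11 for Tcf21, with 7 of 10 above 0 and a median of 0.032, against a median of -0.0019 over all genes tested. Over the 10 genes, the bounds of the 95% intervals lay between changes of -9.6% and 15.3% on the scale of the deposited values.

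Among the transcription factors, Tcf21 had a log2 value of 9.11 ± 0.11 in WT (SD, n = 10) and 9.22 ± 0.021 in Dp1Tyb hearts (n = 5). Its values were 9.23, 9.22, 9.25, 9.19 and 9.20 in Dp1Tyb replicates 1 to 5, and ran from 8.91 to 9.24 with a median of 9.14 in WT. The Dp1Tyb hearts lay close together at the upper end of the WT range, with 1 above it. The log2 fold change was 0.11 (SE 0.047, limma adjusted P = 0.266), and 0.071 (adjusted P = 0.632) with the Xist level as a covariate, where high Xist was seen in 4 of 5 Dp1Tyb and 3 of 10 WT hearts. Wt1 was 9.40 ± 0.095 in WT and 9.41 ± 0.057 in Dp1Tyb hearts, a log2 fold change of 0.010 with an interval of -0.10 to 0.12. Tbx18 was 10.71 ± 0.056 in WT and 10.74 ± 0.055 in Dp1Tyb hearts, with an interval of -0.037 to 0.10.

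Of the retinoic acid enzymes, Aldh1a2 was 9.67 ± 0.15 in WT and 9.72 ± 0.067 in Dp1Tyb hearts (interval of the difference -0.099 to 0.19). Aldh1a1 was 6.05 ± 0.046 in WT and 6.0 ± 0.071 in Dp1Tyb hearts (interval -0.11 to 0.0089). Among the mesothelial membrane and cytoskeletal genes the log2 fold changes were 0.070 for Krt19 (SE 0.035, adjusted P = 0.341), 0.058 for Msln, 0.031 for Lrrn4, -0.0082 for Upk1b and -0.044 for Upk3b. Of the Dp1Tyb hearts 3 of 5 were above every WT heart for Krt19, and the groups overlapped for all 10 genes, while 2.63% of all genes tested did not overlap. The plot of the 10 genes by heart shows how the groups lie.

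**Figure D1:**
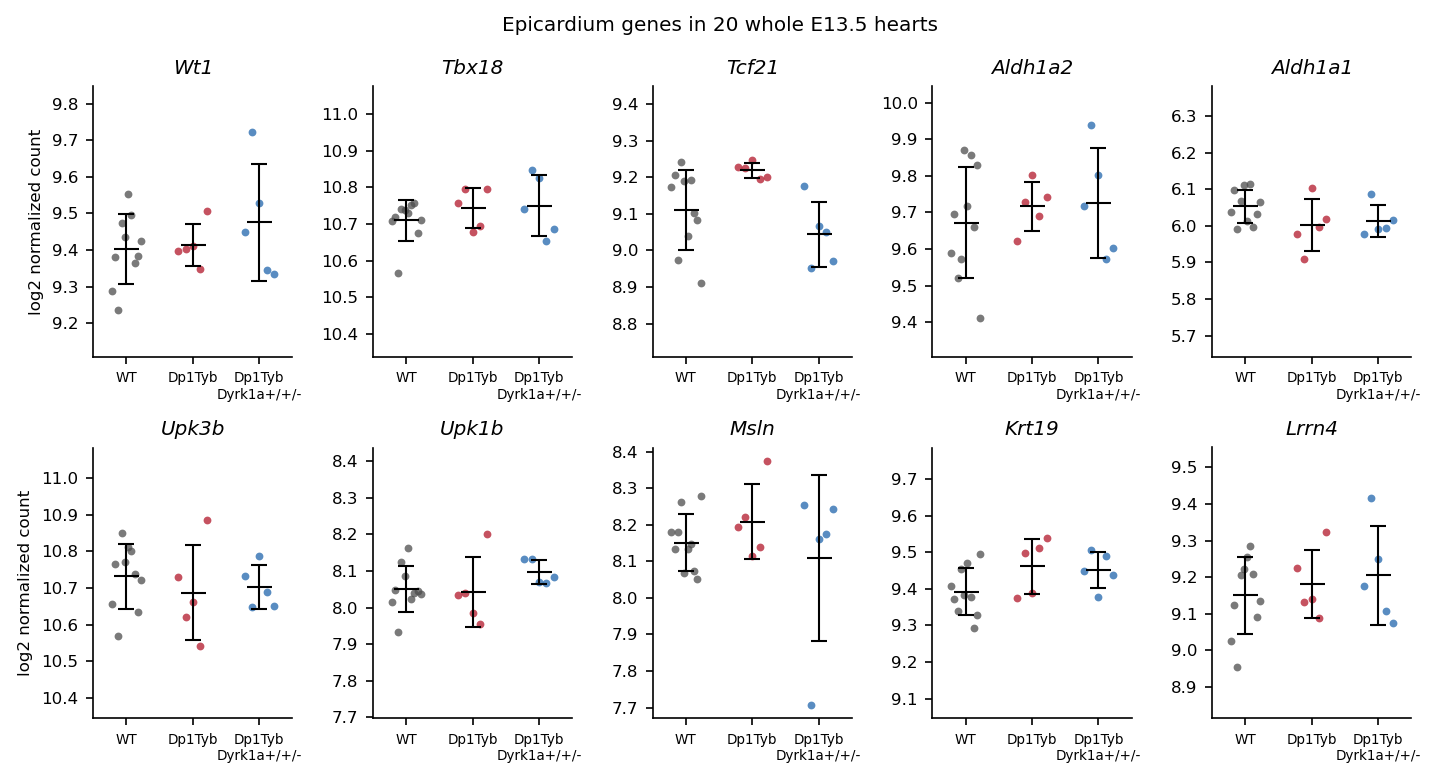
Log2 normalized counts (y axis, the same span of log2 units in every panel) of the 10 epicardium genes in WT, Dp1Tyb and Dp1TybDyrk1a+/+/- hearts, with 1 point per heart and bars for the mean and SD. The 5 Dp1Tyb hearts lie between 9.19 and 9.25 for Tcf21, above the 5 Dp1TybDyrk1a+/+/- hearts at 8.95 to 9.18, and 1 Dp1TybDyrk1a+/+/- heart lies at 7.71 for Msln.

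Hearts with the duplication and the Dyrk1a null allele were compared with WT hearts next. None of the 10 epicardium genes passed the threshold, where 0.712% of all genes tested did. Against 9.64% of all genes tested (1475 genes), 0 of the 10 epicardium genes had an unadjusted P-value under 0.05. The log2 fold changes ran from -0.067 for Tcf21 to 0.072 for Wt1, with 6 of 10 above 0 and a median of 0.044, and the smallest adjusted P-value was 0.599, for Krt19. The bounds of the 95% intervals lay between changes of -11.9% and 14.7% on the scale of the deposited values.

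Wt1 was 9.45, 9.72, 9.53, 9.34 and 9.33 in Dp1TybDyrk1a+/+/- replicates 1 to 5, and ran from 9.24 to 9.55 with a median of 9.40 in WT hearts. Replicate 2 was above every WT heart, and the other hearts lay within the WT range. Without it the log2 fold change of Wt1 fell from 0.072 to 0.010, that of Lrrn4 from 0.054 to 0.0012 and that of Aldh1a2 from 0.054 to 0.0014. Msln was 8.25, 7.71, 8.16, 8.17 and 8.24 in these hearts, and ran from 8.05 to 8.28 with a median of 8.14 in WT. Here replicate 2 was below every WT heart, and without it the log2 fold change of Msln turned from -0.042 to 0.058. Tcf21 was 9.04 ± 0.088, a log2 fold change of -0.067 with an interval of -0.17 to 0.031, and Tbx18 was 10.75 ± 0.084 (0.040, interval -0.030 to 0.11). For the remaining genes the log2 fold changes were -0.040 for Aldh1a1, -0.030 for Upk3b, 0.047 for Upk1b and 0.060 for Krt19. The groups overlapped for all 10 genes, and 0.64% of all genes tested did not overlap.

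To see what the extra functional copy of Dyrk1a went with, Dp1Tyb hearts were compared with Dp1TybDyrk1a+/+/- hearts. These mutant groups came from separately kept strains, and so from separate litters. Dyrk1a dose therefore cannot be told apart from strain or litter in this comparison. None of the 10 epicardium genes passed the threshold, where 1.16% of all genes tested did. Against 18.5% of all genes tested (2838 genes), 1 of the 10 epicardium genes, Tcf21, had an unadjusted P-value under 0.05. Their log2 fold changes ran from -0.062 for Wt1 to 0.17 for Tcf21, with 3 of 10 above 0 and a median of -0.011, against 0.0028 over all genes tested. The bounds of the 95% intervals lay between changes of -12.6% and 22.1% on the scale of the deposited values.

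Tcf21 was 9.22 ± 0.021 in Dp1Tyb and 9.04 ± 0.088 in Dp1TybDyrk1a+/+/- hearts (SD, n = 5 each), with values of 9.18, 8.95, 9.07, 9.05 and 8.97 in replicates 1 to 5 of the latter. All 5 Dp1Tyb hearts were above all 5 Dp1TybDyrk1a+/+/- hearts, and this was the single epicardium gene whose groups did not overlap, in a comparison where 5.65% of all genes tested did not. The log2 fold change was 0.17 (SE 0.054, 95% interval 0.062 to 0.29), or 1.13-fold, and missed the threshold with a limma adjusted P-value of 0.104. By lane the difference was 0.038 in lane 3, 0.25 in lane 6 and 0.20 in lane 7, with 1 to 3 hearts per group in each. Because the groups did not overlap, its direction was fixed in every lane. The adjusted P-value was 0.226 with lane as a covariate and 0.383 with the Xist level as a covariate, and 0.0467 when hearts were weighted by their spread, where the log2 fold change was 0.16 and 8.15% of all genes tested passed the threshold. High Xist was seen in 4 of 5 Dp1Tyb and 1 of 5 Dp1TybDyrk1a+/+/- hearts, and the part of embryo sex was not tested beyond this covariate.

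Tcf21 is also expressed in lung mesenchyme, and the 5 lung epithelium markers tested were above 0 in this comparison, with log2 fold changes of 0.12 to 0.32, 1 unadjusted P-value under 0.05 and none past the threshold. Their part in the Tcf21 difference was not tested. Of the heart muscle markers 7 of 8 were below 0, with a median log2 fold change of -0.096 and a smallest adjusted P-value of 0.084, for the troponin gene Tnnt2, and their part was not tested either. Tcf21 is also needed for cardiac fibroblasts. Of the 16 genes listed below as epicardium-derived mesenchyme, 12 were above 0 here and 4 below, with a median of 0.033 and none past the threshold. The part of fibroblasts in the Tcf21 difference was likewise not tested.

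The other epicardium genes lay closer together in this comparison. The log2 fold change of Wt1 was -0.062 with an interval of -0.19 to 0.070, and was -0.00043 without Dp1TybDyrk1a+/+/- replicate 2. That of Msln was 0.10 with an interval of -0.062 to 0.26, and 0.00011 without this heart. Upk1b had a log2 fold change of -0.055 with an interval of -0.14 to 0.032, with 4 of 5 Dp1Tyb hearts below and 1 above every Dp1TybDyrk1a+/+/- heart. The remaining 6 genes were between -0.023 (Lrrn4) and 0.010 (Krt19).

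**Figure D2:**
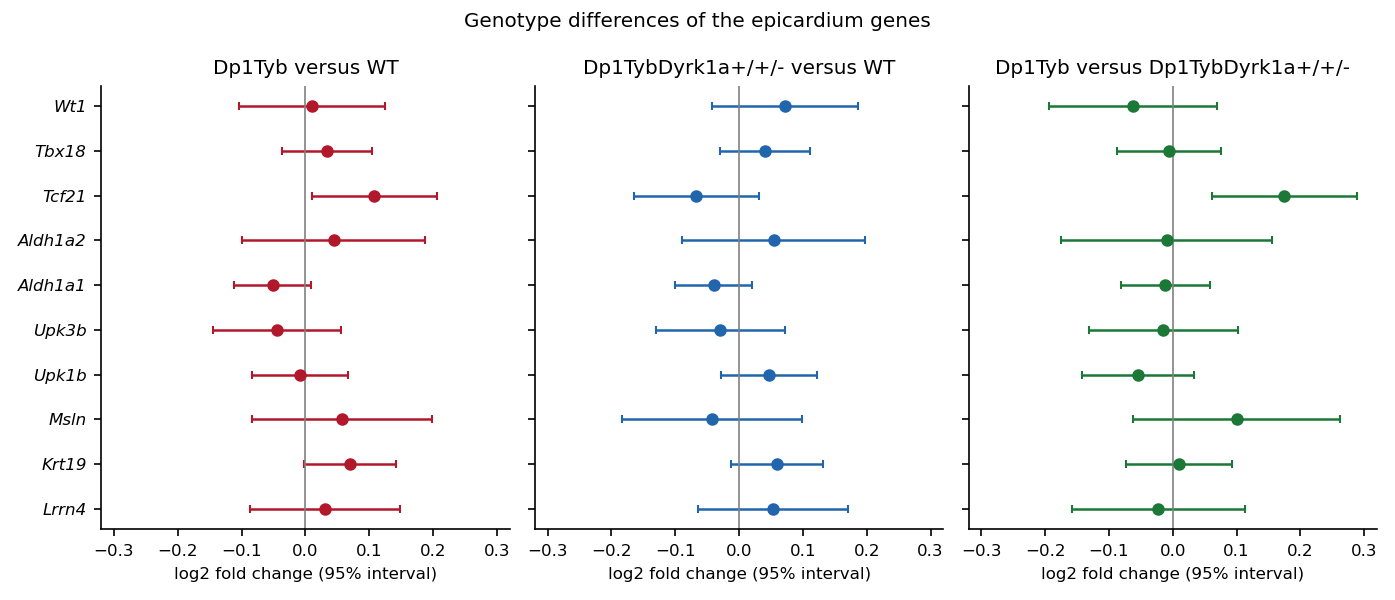
Log2 fold changes (x axis) with 95% intervals of the 10 epicardium genes in the 3 comparisons, 1 panel each, from limma over all 20 hearts. The intervals include 0 except those of Tcf21 in Dp1Tyb versus WT (0.0097 to 0.21) and in Dp1Tyb versus Dp1TybDyrk1a+/+/- (0.062 to 0.29), where its adjusted P-values were 0.266 and 0.104.

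Other genes of the epicardial layer and of its signals were followed in 4 lists, and 0 genes of these lists passed the threshold in any comparison. Of the mesothelial list, 15 of 16 genes were tested, and 5, 1 and 5 had unadjusted P-values under 0.05 in the comparisons of Dp1Tyb with WT, of Dp1TybDyrk1a+/+/- with WT, and of Dp1Tyb with Dp1TybDyrk1a+/+/-, respectively. Over all genes tested, 15.6%, 9.64% and 18.5% had such P-values in these comparisons, and the counts of the lists are to be read against these shares. Nkain4, which encodes a protein that interacts with the sodium pump, had log2 fold changes of 0.15 (adjusted P = 0.0801) in the first and 0.20 (adjusted P = 0.0594) in the third, from means of 7.74 in WT, 7.89 in Dp1Tyb and 7.69 in Dp1TybDyrk1a+/+/- hearts. Ezr, which links membrane to actin in microvilli, had -0.12 in the third (adjusted P = 0.126). Podxl, a sialomucin, had 0.072 and 0.079 against WT in the 2 mutant groups, with adjusted P-values of 0.235 and 0.378, and Rspo1, a secreted enhancer of Wnt signalling, had 0.11 in Dp1TybDyrk1a+/+/- versus WT (adjusted P = 0.522).

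Of the retinoic acid list, 15 of 16 genes were tested and 1, 1 and 0 had unadjusted P-values under 0.05 in the same order of comparisons. In Dp1TybDyrk1a+/+/- versus WT 13 of 15 were below 0, with a median log2 fold change of -0.044 against -0.0030 over all genes. In the same comparison 5 of 5 lung epithelium markers were below 0 (median -0.19), 7 of 7 endothelial markers were above 0 (median 0.062), and their part was not tested. Rxra, a receptor that pairs with the retinoic acid receptors, had -0.092 there (SE 0.027, adjusted P = 0.185) and Rxrg -0.042. Rara, a retinoic acid receptor, had 0.058 in Dp1Tyb versus WT (adjusted P = 0.309) and 0.063 in Dp1Tyb versus Dp1TybDyrk1a+/+/- (adjusted P = 0.285). Rxrg had 0.062 in the latter (adjusted P = 0.270).

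The list of attachment molecules and signals had 20 of 20 genes tested and 4, 4 and 6 unadjusted P-values under 0.05. Tgfbr3, the TGF-beta co-receptor betaglycan, was 10.86 ± 0.058 in WT, 10.99 ± 0.082 in Dp1Tyb and 11.01 ± 0.066 in Dp1TybDyrk1a+/+/- hearts, with log2 fold changes of 0.13 (SE 0.035, adjusted P = 0.052) and 0.14 (SE 0.035, adjusted P = 0.0769) against the same WT hearts. Pdgfb, a growth factor for mural cells, had -0.12 in Dp1Tyb versus WT (adjusted P = 0.184). Vcam1, the myocardial ligand through which the epicardium attaches, had 0.058 in Dp1TybDyrk1a+/+/- versus WT (adjusted P = 0.408) and -0.063 in Dp1Tyb versus Dp1TybDyrk1a+/+/- (adjusted P = 0.217), and Tgfbr2, a TGF-beta receptor, had 0.081 in the latter (adjusted P = 0.163). In the list of epicardium-derived mesenchyme, 16 of 16 genes were tested and 2, 0 and 2 had unadjusted P-values under 0.05. In the same order, 12, 6 and 12 of the 16 genes were above 0, against 48.5%, 47.4% and 52% of all genes tested. Col3a1, a fibrillar collagen, had 0.15 in Dp1Tyb versus WT (adjusted P = 0.309) and 0.20 in Dp1Tyb versus Dp1TybDyrk1a+/+/- (adjusted P = 0.204). Postn, a matrix protein, had 0.089 in Dp1Tyb versus WT (adjusted P = 0.214) and 0.057 in Dp1TybDyrk1a+/+/- versus WT, where Pdgfrb, a receptor of mural cells, had -0.090. Twist1, a factor of epithelial to mesenchymal transition, had 0.10 in Dp1Tyb versus Dp1TybDyrk1a+/+/- (adjusted P = 0.265).

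Hearts of 1 genotype differed from each other in these genes, and some hearts were low or high in most of them. The SD within genotypes ran from 0.052 for Aldh1a1 to 0.14 for Aldh1a2 (log2), against a median of 0.059 over all genes tested. Taken as read counts, the normalized counts would give an SD from counting alone of 0.18 for Aldh1a1 and 0.088 for Upk1b (observed 0.067), which is above the SD observed, and one below the SD observed for the other 8 genes. WT replicate 3 was the lowest of 10 WT hearts for 6 of the 10 genes and below the WT mean for 9. Dp1Tyb replicate 5 was the highest of 5 for 6 genes and above its mean for 9, and Dp1Tyb replicate 4 was below its mean for 9. Dp1TybDyrk1a+/+/- replicate 2 was the highest of 5 for 7 genes, Wt1 and Aldh1a2 among them, and the lowest for 3. Averaged over the 10 genes, the log2 value was 9.04 ± 0.056 in WT, 9.07 ± 0.053 in Dp1Tyb and 9.06 ± 0.042 in Dp1TybDyrk1a+/+/- hearts.

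**Figure D3:**
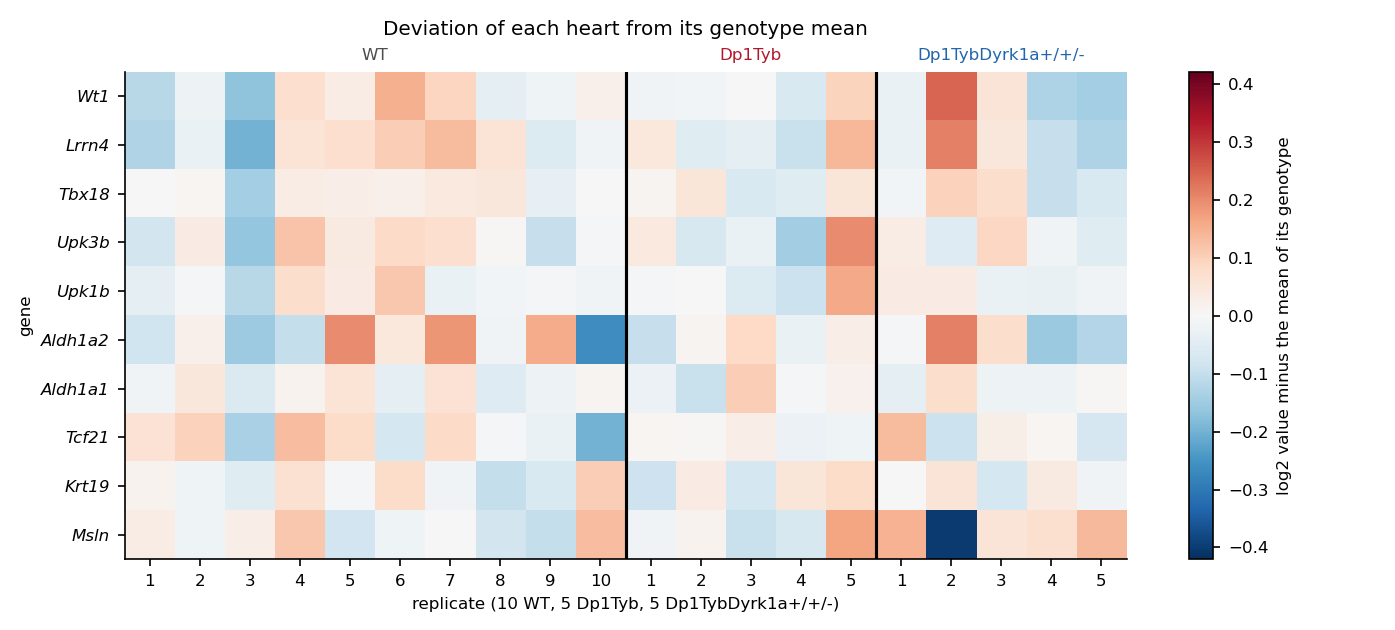
Log2 value of each epicardium gene (rows) in each of the 20 hearts (columns, by genotype and replicate) minus the mean of its genotype, red above and blue below it. WT replicate 3 is below the mean for 9 genes, Dp1Tyb replicate 5 is above it for 9, and Dp1TybDyrk1a+/+/- replicate 2 is high for Wt1, Lrrn4 and Aldh1a2 and low for Msln.

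Across the 20 hearts, after each gene was centred on its genotype means, 38 of the 45 pairs of epicardium genes had a Pearson r above 0, with a median of 0.24. These correlations are descriptions over hearts that share library preparation, lanes and normalization. Wt1 and Lrrn4 were the closest pair (r = 0.92, Spearman rho = 0.88, and r = 0.90 without the 2 hearts farthest out in Wt1). In WT hearts alone the r of this pair was 0.90, and after centring on genotype and lane 0.92. Tbx18 followed Lrrn4 (r = 0.83, rho = 0.80, 0.78 without the 2 farthest hearts) and Wt1 (r = 0.78, rho = 0.73, 0.78). The uroplakin genes Upk3b and Upk1b followed each other (r = 0.77, rho = 0.55), though r was 0.58 without the 2 hearts farthest out in Upk3b. Lrrn4 and Upk3b, whose promoter windows both held CATTCC, had an r of 0.69 (rho = 0.72), and of 0.90 without WT replicate 6 and Dp1TybDyrk1a+/+/- replicate 2. Aldh1a1, which had CATTCC in 1 of its windows, had an r of 0.40 with Lrrn4 and 0.23 with Upk3b. The window of Tbx18, which had an r of 0.83 with Lrrn4, held no match. Tbx18 and Upk3b had an r of 0.57 (rho = 0.53), and of 0.47 without the 2 hearts farthest out in Tbx18. Aldh1a2, whose window is not shown and also held no match, had an r of 0.58 with Lrrn4. Its r was 0.49 with Tbx18 and 0.17 with Upk3b.

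Tcf21, Krt19 and Msln had lower values of r over all 20 hearts. The r of Tcf21 with Wt1 was 0.019 (rho = 0.045) and varied with the hearts used. It was 0.35 without the 2 hearts farthest out in Wt1 and 0.40 without WT replicate 6 and Dp1TybDyrk1a+/+/- replicate 2. In WT hearts alone it was 0.20, and after centring on genotype and lane -0.11. Msln ran against Aldh1a2 (r = -0.63, rho = -0.60, -0.48 without the 2 farthest hearts, and -0.79 in WT hearts alone). Msln and Wt1 had an r of -0.43. This r was 0.046 without the 2 hearts farthest out in Wt1, and 0.21 without WT replicate 6 and Dp1TybDyrk1a+/+/- replicate 2. With the mean of all 10 standardized genes, of which each is a part, r was 0.87 for Lrrn4, 0.84 for Upk3b, 0.83 for Wt1, 0.82 for Upk1b and 0.78 for Tbx18, and then 0.52 for Aldh1a2, 0.45 for Aldh1a1, 0.41 for Tcf21, 0.37 for Krt19 and -0.035 for Msln.

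**Figure D4:**
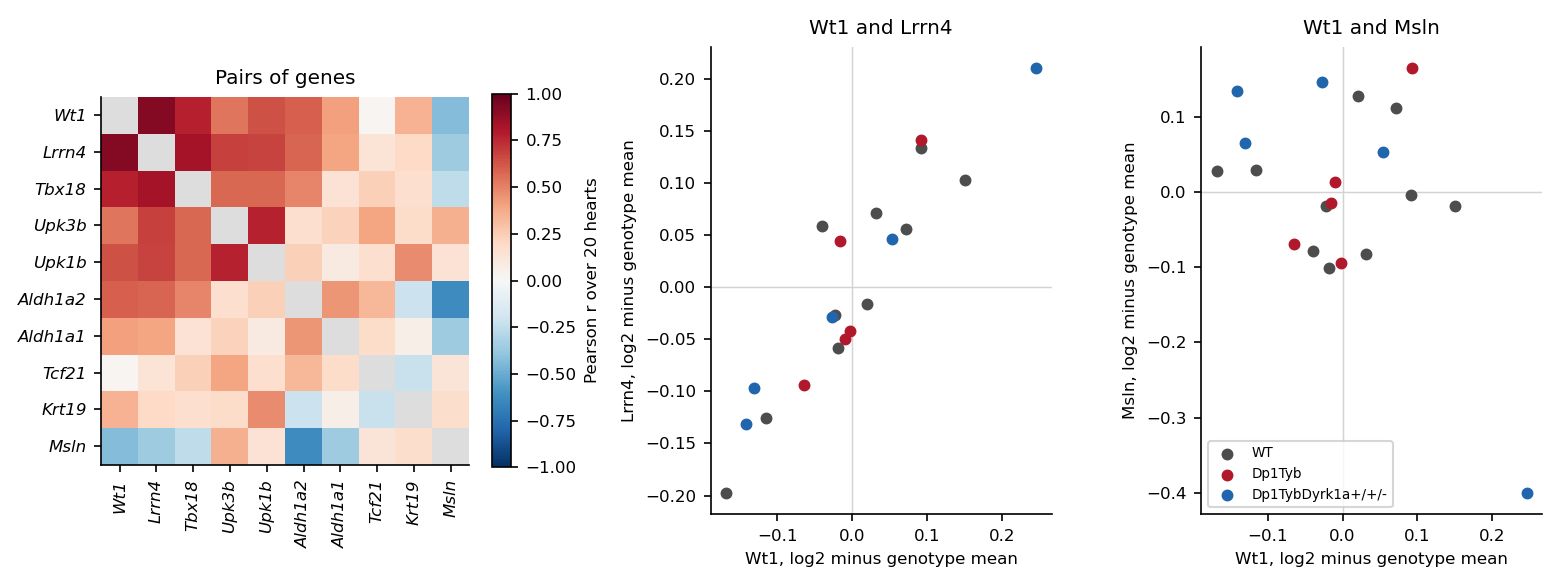
Left, Pearson r over 20 hearts for each pair of epicardium genes after centring on genotype (grey diagonal, red above 0 and blue below). Middle and right, Wt1 against Lrrn4 and against Msln, each as log2 value minus genotype mean with 1 point per heart, where Wt1 and Lrrn4 lie along a line (r = 0.92) and Dp1TybDyrk1a+/+/- replicate 2 lies alone at the lower right for Msln.

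Among the 15294 other genes tested, the 10 whose levels were most like the mean of the epicardium genes were Ildr2 (r = 0.88), Npnt (0.78), Csf1 (0.77), Kat2a (0.77), Calcr (0.76), Stk26 (0.75), Aplp1 (0.74), Daam2 (0.74), Fgf12 (0.74) and Podxl (0.73), against a 95th percentile of 0.46 over all of them. Npnt encodes an extracellular matrix ligand of integrins, Csf1 the macrophage colony-stimulating factor, Kat2a a histone acetyltransferase and Calcr the calcitonin receptor. Podxl was also in the mesothelial list, whose 15 tested genes had a median r of 0.11. Ildr2 had an r of 0.85 to 0.92 under the other ways of measuring it. The list itself moved, and 2 of the 10 genes were shared when values were centred on lane as well, 5 with rank correlation, 7 without WT replicate 6 and 5 without Dp1TybDyrk1a+/+/- replicate 2. All 8 erythroid markers had an r above 0 with the mean of the epicardium genes, from 0.34 to 0.68, and the 5 lung epithelium markers were between -0.23 and -0.17. The summed erythroid level ran from 15.94 to 18.21 (log2) in WT, 16.96 to 18.11 in Dp1Tyb and 16.65 to 18.07 in Dp1TybDyrk1a+/+/- hearts, and its part in these likenesses was not tested.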

How the data were processed

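mRNA of 20 whole E13.5 hearts was sequenced. The authors deposited log2-transformed normalized counts, with values from -2.31 to 18.97 in 48795 Ensembl genes, and 19473 of them held only zeros. The submitters' processing notes name Trimmomatic 0.36, STAR 2.5.2a, RSEM 1.2.31 and DESeq2 with the build GRCm38. The form of the log2 transformation and the strand setting are not given in the sources used here. Whether the transformation understates fold changes, of weakly expressed genes such as Aldh1a1 or of genes in general, was not tested. For Aldh1a1 and Upk1b the SD within genotypes was 0.052 and 0.067. Counting alone would give 0.18 and 0.088, if the normalized counts are taken as read counts. The fold changes, percent changes and intervals given here therefore hold on the deposited scale only. Narrow intervals, such as that of Aldh1a1, are no measure of precision on the scale of counts. No read totals were analysed here, so the depth is unknown and precision rests on the spread between hearts.

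Genes were named from GENCODE M39. The 15304 genes whose normalized counts (2 raised to the value) averaged 10 or more entered 1 limma fit (version 3.58.1, R 4.3.3) over all 20 hearts with a mean for each genotype and eBayes with a trend, because count models need counts, with Benjamini-Hochberg adjustment over all genes and a threshold of 0.05. The comparisons with WT share the 10 WT hearts. Replicate numbers are names in order of deposition and pair no hearts. Python 3.11.15 with pandas 2.3.3, scipy 1.17.1 and numpy 2.4.6 served for the rest. The fit was tested on simulated data. The epicardium genes and the gene lists were chosen with earlier results of these data known. Named were all 10 epicardium genes, the genes of 4 lists past the threshold or else the 2 with the smallest P-values per list and comparison, and the 10 genes most like the epicardium genes. The values of 1 further named gene are left out. Alternatives were other filters, normalizations, limma settings and covariates, and leaving out hearts.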

Additional observations from a re-analysis of the deposited data

Results flagged for a closer look

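Of 30 combinations of an epicardium gene and a genotype, 2 held a heart whose gap to its nearest neighbour took an unusually large share of the range of its group (Dixon's criterion), which chance gives in about 1 in 20 groups. The Tbx18 value of WT replicate 3 was 10.567, against 10.676 to 10.758 in the other 9 WT hearts, and its gap was 0.57 of the range. The Msln value of Dp1TybDyrk1a+/+/- replicate 2 was 7.708, against 8.162 to 8.255 in the other 4 hearts of this genotype, and its gap was 0.831 of the range. WT replicate 3 was also the lowest WT heart for 5 other epicardium genes, and Dp1TybDyrk1a+/+/- replicate 2 was the heart with the largest deviation over all genes tested.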

How the results depend on the processing

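With each of 32 alternatives, 0 of 10 epicardium genes passed the threshold in Dp1Tyb versus WT and in Dp1TybDyrk1a+/+/- versus WT. In Dp1Tyb versus Dp1TybDyrk1a+/+/-, 1 passed, Tcf21, when hearts were weighted by their spread (0.16, adjusted P = 0.0467), where 8.15% of all genes tested passed, and 0 with the other 31. Its adjusted P-value was 0.0538 to 0.197 when 1 heart at a time was left out.

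The count of genes called over the whole table moved more. In Dp1Tyb versus WT it was 471, and became 1422 with weighted hearts, 245 with the Xist level, 779 with only the 2 groups compared and 1178 without both WT replicate 6 and Dp1TybDyrk1a+/+/- replicate 2 (an alternative chosen after seeing the data). With the Xist level 170 genes were increased and 75 decreased, against 277 and 194. Without 1 heart it was 266 (without Dp1Tyb replicate 3) to 959 (without Dp1TybDyrk1a+/+/- replicate 2). In Dp1TybDyrk1a+/+/- versus WT it was 109, then 341 with weighted hearts, 212 without both hearts and 88 to 158 without 1 heart. In Dp1Tyb versus Dp1TybDyrk1a+/+/- it was 178, then 1247 with weighted hearts, 606 without both hearts, 100 and 273 with a minimum mean count of 1 and 100, 76 with no filter, 29 with lane as a covariate, 12 with the Xist level, 3 with only the 2 groups compared, and 30 (without Dp1Tyb replicate 3) to 404 (without WT replicate 6) without 1 heart. The causes were not tested.

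Of 30 pairs of an epicardium gene and a comparison, 18 kept the sign of their log2 fold change under every alternative and 12 did not. The values that changed sign had adjusted P-values of at least 0.58. In Dp1Tyb versus WT, Wt1 became -0.0042 and Aldh1a2 -0.0040 with the Xist level, and Upk1b 0.0042 without both hearts. In Dp1TybDyrk1a+/+/- versus WT, Msln became 0.048 with weighted hearts and 0.056 without both hearts. In Dp1Tyb versus Dp1TybDyrk1a+/+/-, weighting gave Tbx18 0.00051, Aldh1a2 0.041, Aldh1a1 0.012, Msln -0.0067 and Lrrn4 0.0016. Leaving out both hearts gave Tbx18 0.018, Aldh1a2 0.043, Aldh1a1 0.0067 and Lrrn4 0.030. Lane as a covariate gave Tbx18 0.0089 and Lrrn4 0.0044, quantile normalization Tbx18 0.010 and Upk3b 0.0025, and median centring Krt19 -0.0023. Without 1 heart, the ranges that crossed 0 in Dp1Tyb versus WT were -0.013 to 0.027 for Wt1, -0.048 to 0.014 for Upk1b and -0.0045 to 0.054 for Lrrn4, and in Dp1TybDyrk1a+/+/- versus WT -0.079 to 0.058 for Msln. In Dp1Tyb versus Dp1TybDyrk1a+/+/- they were -0.030 to 0.018 for Tbx18, -0.049 to 0.043 for Aldh1a2, -0.037 to 0.011 for Aldh1a1, -0.064 to 0.022 for Upk3b, -0.0090 to 0.032 for Krt19 and -0.058 to 0.030 for Lrrn4. With at least 100 normalized counts, Aldh1a1 gave no value. The unknown depth limits Aldh1a1 most, with a mean normalized count of 65.4.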

Other observations

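Lrrn4 was the gene most like Wt1 over the hearts of all 15303 other genes tested (r = 0.92, values centred on genotype), and it was the single gene with an r above 0.9. This ranking was chosen after the values were seen. Tbx18 was at rank 114, Upk1b at 1032, Upk3b at 1904 and Msln at 12104. These ranks are over all 20 hearts, and without WT replicate 6 and Dp1TybDyrk1a+/+/- replicate 2 the r with Wt1 went from 0.54 to 0.83 for Upk3b and from -0.43 to 0.21 for Msln. The genes after Lrrn4 were Abce1 (0.88), Nolc1 (0.88), Rbms1 (0.87), Igf2bp2 (0.87) and Cdkn1c (0.87), of which Abce1 acts in ribosome recycling and Nolc1 in the nucleolus. The 95th percentile of r with Wt1 over all genes tested was 0.67.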
